A study of Mus musculus with 6 samples.

Results

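The G1 cyclins, their kinases and the inhibitors of these kinases were followed in RNA-Seq data of long-term HSCs (LT-HSCs) from WT and Foxm1 heterozygous (Foxm1 HET) mice. The set holds 10 genes chosen by name, which are the D cyclins Ccnd1, Ccnd2 and Ccnd3, their kinases Cdk4 and Cdk6, the later pair Ccne1 and Cdk2, the inhibitors Cdkn1b and Cdkn2c, and Rb1. All 10 were present among the 27179 genes with read counts and among the 12179 genes of the normalized table. BM cells of C57BL/6 mice at 8 weeks of age were sorted for the CD150+CD48-LSK phenotype, and each genotype gave 3 libraries. Foxm1 encodes a forkhead transcription factor, and the Foxm1 HET mice are labelled as heterozygous for it. Their sample titles name the floxed Foxm1 allele over a normal one and give no Cre driver. The study works with Tie2-Cre, active in endothelial and blood cells, and with the inducible Mx1-Cre, and its RNA-Seq section does not say which was used. The controls are labelled WT with no further allele, although mice with a floxed allele and no Cre serve as controls in other assays of the study, and it is not given whether each library came from 1 mouse.

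D-type cyclins join Cdk4 or Cdk6 early in G1, and the complexes phosphorylate the retinoblastoma protein, the product of Rb1. Phosphorylation frees E2F factors, which switch on Ccne1 and the genes of DNA replication, and cyclin E with Cdk2 then carries the cell into S phase. p27 (Cdkn1b) holds back cyclin E and Cdk2, and p18 (Cdkn2c) binds Cdk4 and Cdk6. In HSCs, which mostly rest outside the cell cycle, this switch is known for its part in leaving quiescence, so the comparison asks whether its transcripts differ between the genotypes.

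Promoter sequences are shown for the genes on which the comparison turns, as letters of the RefSeq reference (GRCm38.p6) from -250 to -51 relative to the annotated start, 5′ to 3′ on the strand of the gene. RefSeq promoters were found for 7 of the 10 genes, with 9 starts. Ccne1 is shown because it was the member whose genotypes did not overlap, and Cdk2 because it encodes the partner of cyclin E. Of the Ccnd3 starts, the more upstream is shown because its window held a forkhead motif. The windows shown lie at chr7:38107541-38107740 (minus strand, Ccne1), chr10:128705102-128705301 (minus strand, Cdk2) and chr17:47504801-47505000 (plus strand, Ccnd3). Capitals mark a match to a searched motif.
Ccne1 promoter: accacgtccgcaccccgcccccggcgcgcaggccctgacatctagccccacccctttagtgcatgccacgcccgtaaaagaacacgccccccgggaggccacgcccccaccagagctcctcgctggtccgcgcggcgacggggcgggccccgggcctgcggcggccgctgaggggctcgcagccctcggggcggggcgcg
Cdk2 promoter: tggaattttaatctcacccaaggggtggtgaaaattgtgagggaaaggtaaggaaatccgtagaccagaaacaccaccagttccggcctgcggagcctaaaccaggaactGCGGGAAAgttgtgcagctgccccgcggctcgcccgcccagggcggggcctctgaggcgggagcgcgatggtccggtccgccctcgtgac
Ccnd3 promoter: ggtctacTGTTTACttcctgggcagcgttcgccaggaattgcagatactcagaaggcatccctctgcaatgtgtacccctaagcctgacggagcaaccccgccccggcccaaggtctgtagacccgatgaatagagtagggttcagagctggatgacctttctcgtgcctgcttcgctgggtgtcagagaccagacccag
The motifs were searched on both strands and were an E2F-type site (TTTCGCGC, TTTGGCGC, TTTCCCGC or TTTGCCGC), a forkhead core (TGTTTAC or TGTTTAT) and the CHR element of cell cycle genes (TTTGAA or TTTAAA). The Cdk2 window held GCGGGAAA, the other strand of TTTCCCGC, with its first base 140 bases before the start. In the Ccnd3 window shown, TGTTTAC began 243 bases before the start. The other 7 member windows held none of these letters, among them that of a further Ccnd3 start at chr17:47593467. Of 32851 promoter windows of the same length, 1.46% held an E2F-type site, 5.96% a forkhead core and 21.4% a CHR element. A match is a string of letters in this window and carries no evidence of binding.

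Library totals ran from 14573002 to 25798509 counted reads. Foxm1 HET replicate 2 was the shallowest, with 4467 genes at 10 reads or more against 5963 to 9894 in the others. Foxm1 itself was lower in each Foxm1 HET library than in each WT library, with a log2 fold change of -3.30 (standard error 2.33), which did not pass the test (adjusted p = 0.961 by edgeR). Of the members, Ccnd2 and Cdkn1b lie on the same chromosome, 1212 kb and 6545 kb from Foxm1. Of 13 LT-HSC markers, 12 had at least 10 reads in 3 or more libraries, and Kit had at least 10720 reads in each. Slamf1, which encodes the sort marker CD150, had 2, 1572 and 0 reads across WT replicates 1, 2 and 3, against 8, 0 and 543 across Foxm1 HET replicates 1, 2 and 3. Ly6a, which encodes Sca-1 of the LSK phenotype, had between 2 and 2261 reads. Cd48, whose protein the sort excludes, reached 6608 reads in WT replicate 2. Transcripts of 7 neutrophil genes summed to between 4830 and 18400 CPM in WT and between 727 and 15900 in Foxm1 HET. CPM here are read counts scaled to library size times a TMM factor. That factor was 0.453 for Foxm1 HET replicate 2 and 1.67 for Foxm1 HET replicate 3. B cell genes were at 12.8 to 269 CPM in WT and 0 to 4.46 in Foxm1 HET, with Cd79a, Ebf1 and Ms4a1 at 0 in all libraries. The part of these transcripts in the results below was not tested.

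For none of the 10 genes did the difference between the genotypes pass the test against the spread of the libraries. By the quasi-likelihood test of edgeR over 8195 genes, Benjamini-Hochberg adjusted, the adjusted p was 0.980 for Ccne1 and 0.998 for each of the other 9. Of all genes tested, 0.329% were called at an adjusted p under 0.05, and 6.03% had an unadjusted p under 0.05, against 0 of the 10 members by either measure. DESeq2 (which gave no adjusted p for Ccnd1, Cdk4 and Cdkn2c), limma-voom and limma on the normalized table also called 0 members, where DESeq2 called 3.13% of the genes it gave an adjusted p. DESeq2 gave 0 of the 7 members with a p an unadjusted p under 0.05, against 13.1% of all genes with one. Limma on the normalized table gave 0 of the 10 an unadjusted p under 0.05, against 4.73% of its 12179 genes. The 95% intervals were wide, as the standard error of a log2 fold change had a median of 2.52 for the members and 2.59 for all genes. In fitted values 5 members were higher in Foxm1 HET and 5 lower, the median log2 fold change being 0.60 against -0.26 for all genes tested. The members' median turned negative, to -0.48 and -0.31, without Foxm1 HET replicate 1 or 2, and to -0.26 by limma-voom. In bulk libraries such as these, fewer cells with a transcript and less of it per cell cannot be told apart.

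**Figure D1:**
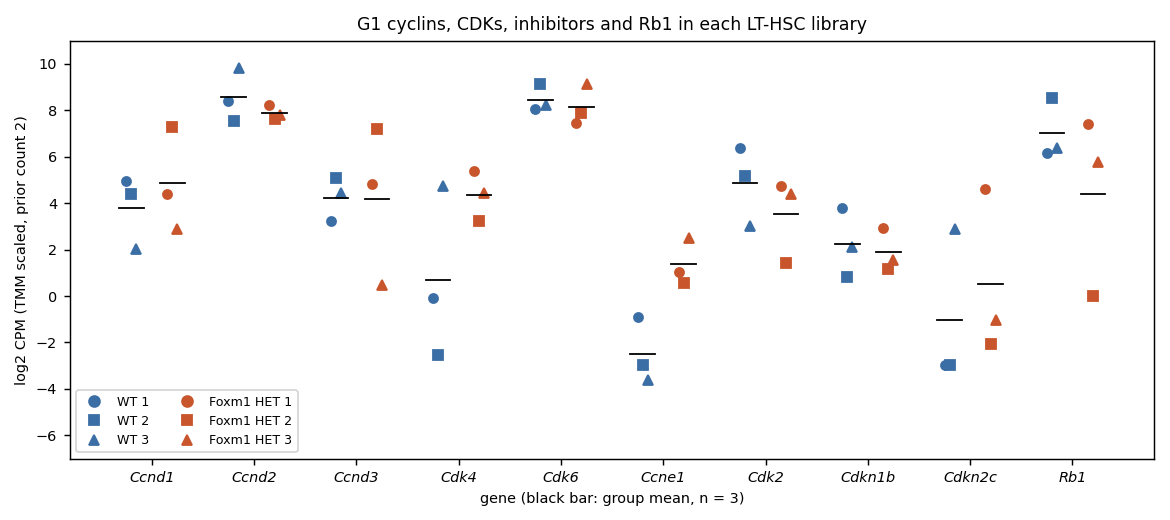
Levels of the 10 genes in each library as log2 CPM (TMM scaled, prior count 2), with WT in blue, Foxm1 HET in orange, a marker shape per replicate number and a black bar for the group mean (n = 3). The genotypes separate for Ccne1, from -3.62 to -0.91 in WT and from 0.56 to 2.52 in Foxm1 HET, and overlap for the other 9 genes.

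Among the D cyclins, Ccnd2 had the highest mean level, and none of the 3 separated the genotypes. Ccnd2 (NCBI gene 12444, GRCm38 chr6:127125708-127151048) had 7526, 4172 and 14531 reads across WT replicates 1, 2 and 3, against 11377, 1263 and 9330 across Foxm1 HET replicates 1, 2 and 3. Its log2 CPM, read counts scaled to the library by TMM, on a log2 scale, were 8.41, 7.53 and 9.83 in the WT libraries against 8.22, 7.61 and 7.80 in the Foxm1 HET libraries. On this scale, all 3 Foxm1 HET libraries lay within the WT range and within 0.61 of one another. In TPM, reads scaled to gene length and library size, Foxm1 HET replicate 2 was the lowest of the 6 libraries. It stood at 33.0 TPM, against 73.0 in the lowest WT library, WT replicate 2. In the normalized table it was the lowest as well, at 5.93 against 5.95 in WT replicate 2. The log2 fold change was -1.0 (standard error 1.55, 95% interval -4.04 to 2.04), and the exact two-sided permutation test on log2 CPM gave p = 0.5, where 3 libraries against 3 cannot go below 0.1. Without WT replicate 3 the fold change was -0.17, and in the normalized table the difference was -0.09.

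Ccnd1 (NCBI gene 12443, chr7:144929931-144939925) encodes cyclin D1. It had 679, 481 and 63 reads in the WT replicates in order and 804, 1011 and 303 in the Foxm1 HET replicates. On the log2 CPM scale, the values were 4.94, 4.42 and 2.01 against 4.41, 7.29 and 2.87. The highest library was Foxm1 HET replicate 2 and the lowest WT replicate 3, and the genotypes overlapped. The fitted log2 fold change of 1.72 (standard error 2.45, 95% interval -3.09 to 6.53) turned to -0.34 without Foxm1 HET replicate 2. Of the stretches of 50 bases in the GENCODE transcripts of Ccnd1, 21.6% also occur in another gene, and how many of its counted reads are shared was not measured.

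Ccnd3 (NCBI gene 12445, chr17:47505051-47599689) encodes cyclin D3, a D cyclin used widely in blood cells. Its reads were 204, 767 and 343 in the WT libraries against 1095, 949 and 55 in the Foxm1 HET libraries, and its log2 CPM 3.22, 5.09 and 4.43 against 4.85, 7.20 and 0.48. Foxm1 HET replicates 2 and 3 were the highest and the lowest of the 6 libraries, with all WT values between them. The group means of log2 CPM were 4.24 ± 0.949 (SD, n = 3) for the WT and 4.18 ± 3.41 (SD, n = 3) for the Foxm1 HET libraries. The fitted log2 fold change was 1.45 (standard error 2.43), so the fit to the reads and the means of the logs differed in sign, and it was -0.45 without Foxm1 HET replicate 2. Of the counted exon bases of Ccnd3, 15.9% also belong to Bysl.

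**Figure D2:**
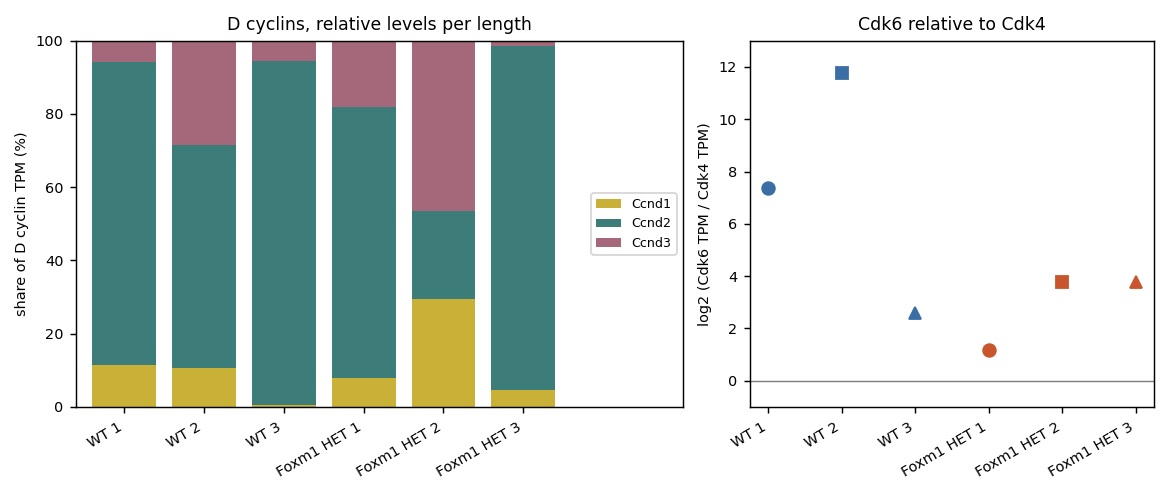
Left, share of each D cyclin in the summed TPM (reads scaled to gene length and library size) of the 3 D cyclins, as stacked bars per library in percent. Right, log2 ratio of Cdk6 TPM to Cdk4 TPM, 1 point per library, where Ccnd2 is the largest share in 5 of the 6 bars and every ratio lies above 0.

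On the TPM scale, which corrects reads for gene length and library size, Ccnd2 made up 82.9%, 60.8% and 93.7% of the summed D cyclin level in WT replicates 1, 2 and 3. In Foxm1 HET replicates 1, 2 and 3 its share was 73.9%, 24.2% and 93.9%. Ccnd2 was thus the leading D cyclin in 5 of the 6 libraries, and in Foxm1 HET replicate 2 it was Ccnd3, with 46.4%. The mean Ccnd2 share was 79.1% ± 16.8 (SD, n = 3) across the WT libraries, against 64.0% ± 35.9 (SD, n = 3) across the Foxm1 HET libraries (exact two-sided permutation test, p = 0.7). The difference of -15.1 percentage points became 4.78 without Foxm1 HET replicate 2.

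Of the kinases that D cyclins bind, Cdk6 exceeded Cdk4 in all 6 libraries, by ratios that varied widely between them. Cdk6 (NCBI gene 12571, chr5:3344312-3522225) had 5838, 12654 and 4761 reads in the WT libraries against 6673, 1522 and 23338 in the Foxm1 HET libraries. On the log2 CPM scale, the values were 8.04, 9.13 and 8.22 against 7.45, 7.88 and 9.12. The genotypes overlapped, and on this TMM-scaled measure the lowest and highest of the 6 values were 1.68 apart. On log2 CPM, Cdk6 thus had a smaller range than all but 0.732% of the genes tested, whose median range was 8.10. It had at least 1522 reads in each library. In TPM, which does not use the TMM factors, Cdk6 ran from 92.9 in Foxm1 HET replicate 2 to 874 in Foxm1 HET replicate 3. These libraries were also its lowest and highest in the normalized table. Whether its range is small among all genes on those scales was not tested. The log2 fold change was -0.21 (standard error 1.54, 95% interval -3.24 to 2.81), and its sign changed under several alternative settings.

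Cdk4 (NCBI gene 12567, chr10:127063603-127067283) was uneven between libraries, with 19, 2 and 427 reads in the WT libraries against 1615, 60 and 918 in the Foxm1 HET libraries. On the log2 CPM scale, WT had -0.09, -2.56 and 4.74 and Foxm1 HET 5.41, 3.22 and 4.46. WT replicates 1 and 2 were below all Foxm1 HET libraries, while WT replicate 3 lay inside their range. The fitted log2 fold change was 1.41 (standard error 2.82, 95% interval -4.12 to 6.95), and the exact two-sided permutation test gave p = 0.3. Without WT replicate 3 the fold change was 5.65 (standard error 4.03, adjusted p = 0.822 by edgeR, Benjamini-Hochberg adjusted). The 2 remaining WT libraries lay below all 3 Foxm1 HET libraries, which follows from leaving out the WT library inside their range. In that setting 17.7% of all genes did not overlap. In the normalized table, Cdk4 was 3.06 higher on its log2 scale in Foxm1 HET (limma, unadjusted p = 0.0537, adjusted p = 0.930). Some 17.0% of the stretches of 50 bases in the GENCODE transcripts of Cdk4 occur in other genes too, and how such reads were counted is not given in the sources used here.

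The log2 ratio of Cdk6 TPM to Cdk4 TPM was 7.39, 11.75 and 2.60 across WT replicates 1, 2 and 3, against 1.17, 3.79 and 3.79 across Foxm1 HET replicates 1, 2 and 3. WT replicate 3 lay within the Foxm1 HET range. The means were 7.25 ± 4.58 (SD, n = 3) and 2.92 ± 1.51 (SD, n = 3), a difference of -4.33 (exact two-sided permutation test, p = 0.3), which was -2.08 without WT replicate 2 and -6.65 without WT replicate 3. In WT replicate 2 the ratio rests on 2 Cdk4 reads.

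Ccne1 (NCBI gene 12447, chr7:38097984-38107490), which encodes cyclin E1, was the member whose genotypes did not overlap. It had 10, 1 and 0 reads across WT replicates 1, 2 and 3, against 74, 9 and 237 across Foxm1 HET replicates 1, 2 and 3. On the log2 CPM scale these were -0.91, -2.99 and -3.62 in the WT libraries against 1.02, 0.56 and 2.52 in the Foxm1 HET libraries. Per length, the TPM were 0.554, 0.0516 and 0 in the WT libraries against 3.11, 0.694 and 11.2 in the Foxm1 HET libraries. Every Foxm1 HET library was above every WT library after scaling for depth, but the nearest pair rests on 9 reads in Foxm1 HET replicate 2 and 10 in WT replicate 1, so in unscaled reads the genotypes overlapped. The 0 reads in WT replicate 3 allow up to 0.188 CPM, a limit of 3 reads that covers counting error only.

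For Ccne1, the log2 fold change was 4.13 (standard error 3.16, 95% interval -2.06 to 10.32), and the exact two-sided permutation test gave p = 0.1, the smallest it can give here. Of all genes tested, 8.68% had genotypes that did not overlap (4.12% higher and 4.55% lower in Foxm1 HET), and among the members it was 1 of 10. The promoter window of Ccne1 shown above held none of the searched motifs, but it ends at -51, and bases closer to the start were not searched. In the normalized table, the Ccne1 values were 0.96, 0.69 and 0.16 in the WT libraries against 0.86, 3.43 and 1.94 in the Foxm1 HET libraries. On that scale, where 9.64% of all genes did not overlap, the genotypes overlapped for Ccne1 and the other 9 members, and the difference was 1.47 (limma, adjusted p = 0.930).

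Cdk2 (NCBI gene 12566, chr10:128697939-128705051), the kinase partner of cyclin E, did not separate the genotypes. Its reads were 1823, 812 and 130 in the WT libraries against 1022, 17 and 876 in the Foxm1 HET libraries, with log2 CPM of 6.37, 5.17 and 3.04 against 4.75, 1.44 and 4.39. The lowest was Foxm1 HET replicate 2 and the highest WT replicate 1, and the genotypes overlapped. The fitted difference on the log2 scale was -1.33 (standard error 2.60, 95% interval -6.41 to 3.76), and the exact two-sided permutation test gave p = 0.4. It was -0.28 without WT replicate 1.

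The inhibitors had low mean levels, although Cdkn2c reached 69.8 TPM in Foxm1 HET replicate 1. Cdkn1b (NCBI gene 12576, chr6:134920401-134925525), which encodes p27, had 305, 38 and 68 reads in the WT libraries against 287, 14 and 121 in the Foxm1 HET libraries. The log2 CPM were 3.79, 0.82 and 2.12 against 2.93, 1.17 and 1.57. All Foxm1 HET values lay between the lowest and the highest WT value. Its log2 fold change was -0.65 (standard error 2.98, 95% interval -6.49 to 5.20), and without WT replicate 1 it was 0.61. The 6 libraries spanned 2.98 on the log2 CPM scale, and 5.64% of the genes tested spanned less.

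Cdkn2c (NCBI gene 12580, chr4:109660876-109665372), which encodes p18, was close to absent in 3 libraries. Its reads were 1, 1 and 117 in the WT libraries against 938, 1 and 17 in the Foxm1 HET libraries, with log2 CPM of -2.98, -2.99 and 2.89 against 4.63, -2.08 and -1.04. Within each genotype, 1 library held most of the reads, and the genotypes overlapped. The log2 fold change of 1.77 (standard error 3.06, 95% interval -4.23 to 7.76) became -2.97 without Foxm1 HET replicate 1 and 7.38 without WT replicate 3, so single libraries set its sign and size.

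Rb1 (NCBI gene 19645, chr14:73195502-73325791), whose product the cyclin D kinases phosphorylate, had 1605, 8296 and 1348 reads in the WT libraries against 6570, 6 and 2321 in the Foxm1 HET libraries. On the log2 CPM scale, the values were 6.18, 8.52 and 6.40 against 7.43, 0.01 and 5.80. A single library, Foxm1 HET replicate 2, was far below the other 5, which ranged from 5.80 to 8.52 with both genotypes mixed. Its log2 fold change came to -1.19 (standard error 1.86, 95% interval -4.84 to 2.45), and it was -0.56 (standard error 1.61) without that library, -0.07 without WT replicate 2 and -2.49 without Foxm1 HET replicate 1. For Rb1, 12% of the stretches of 50 bases also occur in other genes.

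**Figure D3:**
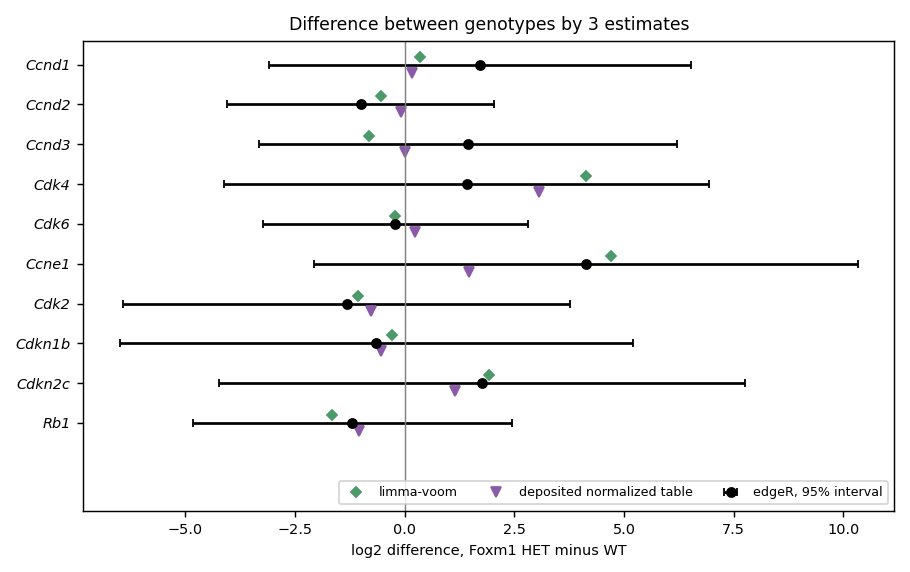
Difference between Foxm1 HET and WT for each of the 10 genes on a log2 scale, by edgeR (black points with 95% intervals), by limma-voom (green) and in the deposited normalized table (purple). Every edgeR interval includes 0, and the estimates lie on both sides of 0 for Ccnd3 and Cdk6.

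Compared per length over the 6 libraries as log2(TPM + 1), Cdk6 was the highest at 8.11 ± 1.14 (SD, n = 6), followed by Ccnd2 at 6.82 ± 1.01 and Rb1 at 5.05 ± 2.56. Next came Ccnd3 at 4.26, Cdk2 at 4.23, Ccnd1 at 3.69 and Cdk4 at 3.68. The inhibitors Cdkn1b at 2.33 and Cdkn2c at 1.88 were lower, and Ccne1 was the lowest at 1.19 ± 1.40. Cdk6 exceeded Ccnd2 by 1.29 on this scale with an SD of 1.23 over the paired libraries, in 5 of 6 libraries. For each of the other neighbours in the order, the gap was smaller than the SD of its paired differences. That SD is the spread of single libraries, and no order between neighbours was tested. Cdk6 was the highest and Ccne1 the lowest in this order also when any library was left out. The counted gene models were shorter than those of GENCODE, for Cdk6 2470 against 13989 exon bases, so levels refer to the counted exons.

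The members also differed in how far their log2 CPM varied between libraries, and these spans depend on the TMM scaling. From the lowest to the highest library, Cdk6, Ccnd2 and Cdkn1b spanned 1.68, 2.30 and 2.98 on the log2 CPM scale. Cdk2 spanned 4.93, Ccnd1 5.28, Ccne1 6.14 and Ccnd3 6.72. Cdkn2c, Cdk4 and Rb1 had ranges of 7.62, 7.96 and 8.51, near the median of 8.10 over all genes tested. Of the 10 genes, 6 had at least 10 reads in every library, and Foxm1 HET replicates 1 and 3 had at least 10 reads for all 10.

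The normalized table gives the same libraries on another scale, on which low read counts stand at different heights. It ranks the genes of each library as reads per length do, with the same highest value of 18.05 in all libraries. Genes with 5 to 20 reads had a median value of 3.13 in Foxm1 HET replicate 2, against 0.257 and 0.386 in Foxm1 HET replicates 1 and 3 and 0.880, 1.38 and 1.91 in the WT libraries. Rb1 with 6 reads in Foxm1 HET replicate 2 thus has the value 2.52 there. Cdk2 with 17 reads in Foxm1 HET replicate 2 has 3.65, and with 1022 reads in Foxm1 HET replicate 1 it has 4.49. Foxm1 HET replicate 2 therefore stands higher at the same low reads, as the plot of reads against normalized values shows.

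**Figure D4:**
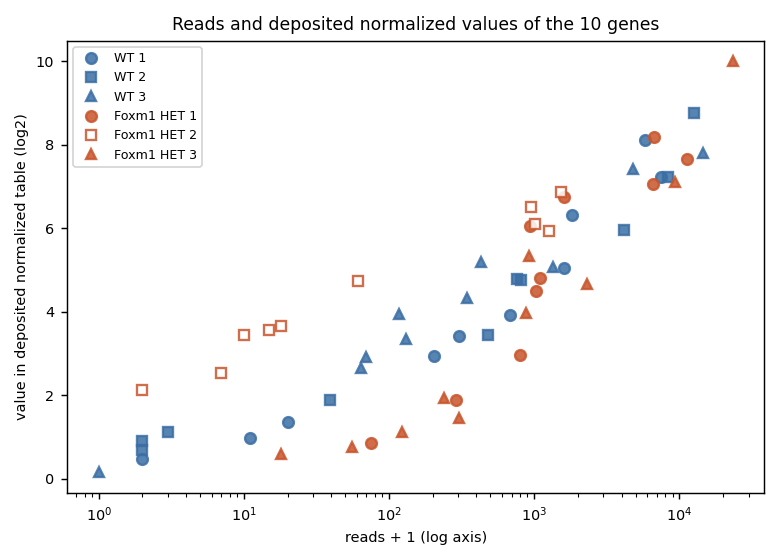
Reads plus 1 (log axis) against the value in the deposited normalized table (log2) for the 10 genes, 1 point per gene and library. Open squares mark Foxm1 HET replicate 2, which lies above the other libraries at low reads, for example at 3.43 for the 9 reads of Ccne1.

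Beyond the 10 genes, 33 further genes of the G1/S network were examined, of which 31 were tested and 0 were called by edgeR, DESeq2, limma-voom or limma on the normalized table. DESeq2 gave no adjusted p for 6 of them. In fitted values 13 were higher in Foxm1 HET and 18 lower, the median log2 fold change being -0.13. The genotypes did not overlap for 4 of them, each lower in Foxm1 HET, where 8.68% of all genes did not overlap in either direction and 4.55% were lower. These were Ccna2 (cyclin A2), Tfdp1 (a dimerization partner of E2F), Cdc25a (a phosphatase that activates Cdk2) and Cdc37 (a chaperone partner that stabilizes Cdk4 and Cdk6), and Tfdp1 and Cdc25a are named here for that reason, after their values were seen. For Ccna2 the nearest log2 CPM values were 7.24 in WT replicate 2 and 7.21 in Foxm1 HET replicate 1. For Tfdp1 they were 4.91 in WT replicate 2 and 4.83 in Foxm1 HET replicate 2. In TPM the genotypes overlapped for Ccna2, Tfdp1 and Cdc37, and did not for Cdc25a. In the normalized table the genotypes overlapped for Ccna2 and Tfdp1. On that scale 3 of 31 network genes did not overlap, against 9.64% of all genes. Cdc25a and Cdc37 were lower and Ccndbp1 higher in Foxm1 HET. By edgeR, 1 of the 31 genes, Cdk7, whose kinase activates Cdk2 and Cdk4, had an unadjusted p under 0.05, against 6.03% of all genes. By DESeq2 it was 2 genes, Cdc25a and Cdc37, against 13.1% of the genes it gave a p. By limma on the normalized table, it was 3 genes, against 4.73%, with Ccndbp1, a binding partner of D cyclins that is named after its values were seen, joining Cdc25a and Cdc37.

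Cdc25a had 2550, 1434 and 1331 reads across WT replicates 1, 2 and 3, against 372, 1 and 508 across Foxm1 HET replicates 1, 2 and 3. For Cdc25a the fitted log2 fold change was -3.57 with a standard error of 2.54 (adjusted p = 0.966 by edgeR, Benjamini-Hochberg adjusted). In the normalized table the difference was -3.88, without overlap (limma, unadjusted p = 0.00192, adjusted p = 0.775). Ccna2 had 6860, 3406 and 17208 reads in the WT libraries against 5644, 141 and 3471 in the Foxm1 HET libraries. Cdc37 had 526, 1684 and 5743 against 487, 18 and 687, and Tfdp1 had 1487, 679 and 3543 against 74, 184 and 895. Fitted log2 fold changes came to -2.60 (standard error 1.67) for Ccna2, -3.84 (standard error 2.26) for Cdc37 and -2.62 (standard error 2.29) for Tfdp1.

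Cdk7 had 74, 705 and 20458 reads in the WT libraries against 960, 8 and 228 in the Foxm1 HET libraries. WT replicate 3 alone held most of its reads, and the genotypes overlapped. The fit gave a log2 fold change of -5.36 (standard error 1.98, unadjusted p = 0.00670, adjusted p = 0.390 by edgeR, Benjamini-Hochberg adjusted). Ccnh, the cyclin that binds Cdk7, likewise had 4321 of its reads in WT replicate 2 and between 2 and 89 in each of the others. The log2 fold changes of Skp2, a subunit of the ligase that degrades p27, and of E2f6, a repressor of the E2F family, were 4.18 (standard error 2.33) and -3.49 (standard error 2.0), and their genotypes overlapped.

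The further inhibitors and the pocket proteins related to Rb1 were uneven as well. Cdkn2a and Cdkn2b, which encode p16 and p15, had 0 reads in all 6 libraries, which allows up to between 0.0717 and 0.463 CPM per library. Cdkn1a (p21) had 301, 39 and 0 reads in the WT libraries against 349, 47 and 264 in the Foxm1 HET libraries. Cdkn1c (p57), an inhibitor known for its part in HSC quiescence, had 2, 993 and 4 against 1524, 0 and 13. Neither separated the genotypes, with log2 fold changes of 0.57 (standard error 2.97) and -0.13 (standard error 2.82). Cdkn2d (p19) had 135, 6 and 1 reads in the WT libraries against 21, 0 and 237 in the Foxm1 HET libraries. Rbl1 (p107) had 2467, 159 and 25 against 1478, 4 and 3137, and Rbl2 (p130), the pocket protein of resting cells, had 2234, 81 and 468 against 1288, 995 and 5801. The log2 fold changes were -0.04 for Cdkn2d, -0.07 for Rbl1 and 1.28 for Rbl2, each with a standard error above 2.

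**Figure D5:**
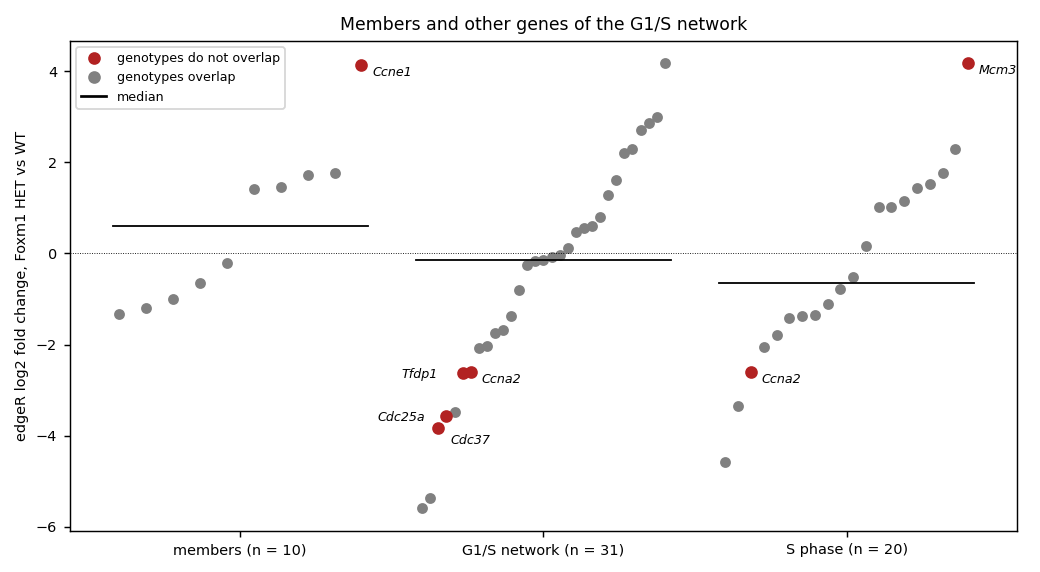
edgeR log2 fold changes (Foxm1 HET against WT) of the 10 members, 31 G1/S network genes and 20 S phase genes, each list sorted, with red points for genes whose genotypes do not overlap and a line at the median. The medians are 0.60, -0.13 and -0.65, and Ccna2 appears in both of the longer lists.

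Genes of DNA replication, which E2F factors switch on after G1, were examined as 20 S phase genes. By edgeR, DESeq2, limma-voom and limma on the normalized table, none (0 of 20) was called, and by edgeR 0 had an unadjusted p under 0.05. Such a p was found for 2 genes by DESeq2, Mcm3 and Cdc6, and for 2 by limma on the normalized table, Mcm3 and Mcm2. The shares over all genes were 6.03%, 13.1% and 4.73% for edgeR, DESeq2 and limma. DESeq2 gave no adjusted p for 3 of the 20. In fitted values 9 were higher in Foxm1 HET and 11 lower, the median log2 fold change being -0.65. The genotypes did not overlap for 2 of the 20, against 8.68% of all genes tested. These were Ccna2 and Mcm3, a subunit of the replicative helicase, with 185, 31 and 63 reads in the WT libraries against 2382, 431 and 4969 in the Foxm1 HET libraries for Mcm3. In the normalized table Ccna2 overlapped, and Mcm3 and Mcm6, another subunit, were higher in Foxm1 HET without overlap, where 9.64% of all genes did not overlap. Mcm2, Mcm4, Mcm5, Mcm6 and Mcm7, the other helicase subunits on the list, are named after their values were seen. By edgeR, Mcm4 and Mcm5 were lower in Foxm1 HET, at -1.35 (standard error 2.66) and -0.52 (standard error 2.66). Fitted values were higher for Mcm2 (1.77, standard error 2.50), Mcm6 (1.02, standard error 1.79) and Mcm7 (1.53, standard error 2.30). On log2 CPM the genotypes overlapped for each of these. For Mcm3 the fit gave a log2 fold change of 4.18 with a standard error of 2.66 (adjusted p = 0.941 by edgeR, Benjamini-Hochberg adjusted), and the difference in the normalized table was 3.93 (limma, adjusted p = 0.775). DESeq2 gave Mcm3 a log2 fold change of 4.44 with an adjusted p of 0.0590, just short of the threshold. By edgeR, the next smallest p-values belonged to Cdc6, which loads the helicase, at -4.58 (standard error 2.98), Pola1, a subunit of the priming polymerase, at -3.34 (standard error 2.88), and Rrm1, a subunit of ribonucleotide reductase, at -1.78 (standard error 1.82). Their genotypes overlapped. S phase genes with at least 10 reads numbered 9 of 20 in Foxm1 HET replicate 2 and 14 to 20 in the others.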

How the data were processed

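LT-HSC RNA of 3 WT and 3 Foxm1 HET mice was sequenced as single reads of 50 bp, and the authors aligned trimmed reads to GRCm38 with STAR 2.7.2b. The authors deposited read counts per gene, unscaled, with exon coordinates and lengths. The counting program and its use of strand, duplicates and reads matching several places are not given in the sources used here. They also deposited a normalized table on a log2 scale for fewer genes, a unit inferred from its values, and limma is listed in the submitters' processing notes without a role. The labels describe a stranded kit with ribosomal depletion, and the study's methods a Clontech kit for a few nanograms of RNA.

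Groups follow the genotype labels. Counts were compared with edgeR 4.0.16 in R 4.3.3 (default filter, TMM scaling, quasi-likelihood test, p-values adjusted over 8195 genes by Benjamini-Hochberg), with genotype as the only term. Standard errors are the log2 fold change over the square root of F. TPM was computed from counts and the deposited lengths, and log2 CPM used a prior count of 2. Genotypes were called non-overlapping on log2 CPM and compared with exact two-sided permutation tests, whose smallest p is 0.1. Alternatives were RLE and library-size scaling, other filters, a replicate block, leaving out each library, DESeq2 1.42.0, limma-voom and limma 3.58.1 on the normalized table. Leaving out libraries for the D cyclin shares and the Cdk6 to Cdk4 ratio was added once the values were known. The scripts were tested on simulated data. Library totals had a median of 22269322 reads, and the biological coefficient of variation was 1.66. Samples are not said to be separate animals beyond 3 pairs of mice, and p-values measure the spread between these libraries. PCR duplicates are not marked, so counting limits understate the error. No batch is given in the labels.

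Named are the 10 members, Foxm1, sort markers, and from a G1/S network list (33 genes) and an S phase list (20 genes) up to 6 genes with the smallest p, plus inhibitors and pocket proteins. Of the genes so chosen, 1 is not reported here and is included in the counts. The members and lists were chosen with earlier results of these data known. Promoters are RefSeq (GRCm38.p6), without the last bases before the start.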

Additional observations from a re-analysis of the deposited data

How the results depend on the processing

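In all 14 alternatives, 0 members, 0 G1/S network genes and 0 S phase genes were called. Over all genes, 27 were called by edgeR as described, 10 with RLE scaling, 7 with library-size scaling, 4 with limma-voom, 194 with DESeq2 and 0 with at least 10 reads in every library (157 at an unadjusted p under 0.05) or in the normalized table (576 at an unadjusted p under 0.05). Leaving out each library in turn gave 0 to 29. Members whose genotypes did not overlap numbered 1 by log2 CPM, 0 in the normalized table and 1 to 4 with a library left out, where 15% to 21.6% of all genes did not overlap. With a library left out, Ccne1 was among them each time, joined by Cdk4, Cdk2 and Cdkn2c without WT replicate 3, Ccnd2 without WT replicate 2, Rb1 without Foxm1 HET replicate 1 and Cdk6 without Foxm1 HET replicate 3.

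The median log2 fold change of the members was 0.60, from -0.48 (without Foxm1 HET replicate 1; -0.31 without Foxm1 HET replicate 2) to 0.80 with a library left out, and from -0.26 (limma-voom) to 0.68 in the other settings. With at least 10 reads in every library, which only 6 members have, it was -0.21. The sign of Cdk6 turned with library-size scaling (0.27), with 10 reads in every library (0.045) and in the normalized table (0.24), and ranged from -0.85 to 0.17 with a library left out. Ccnd3 was -0.81 by limma-voom. With a library left out, Ccnd3 ranged from -0.45 to 1.99, Ccnd1 from -0.34 to 2.22, Cdkn1b from -1.31 to 0.61 and Cdkn2c from -2.97 to 7.38, while Ccnd2 (-1.41 to -0.17), Cdk2 (-1.85 to -0.28) and Rb1 (-2.49 to -0.07) kept their sign. Ccne1 stayed positive, from 3.34 to 6.82 with a library left out and from 1.47 to 4.97 otherwise, as did Cdk4, from 0.81 to 5.65 and from 1.36 to 4.56. The cause of these shifts was not tested. The median of all genes moved from -0.26 to -0.13 with RLE scaling, 0.10 with library-size scaling and 0.26 with limma-voom.

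The study names 3 pairs of mice, and whether the replicate numbers in the titles follow these pairs is not given. Same-numbered libraries deviated from their group means with correlations of 0.016, -0.025 and -0.069 over 8195 genes. As deviations from the means of 3 libraries, they cannot decide whether the libraries were paired. With the replicate number as a block, 0 genes were called (108 at an unadjusted p under 0.05), 0 of them members, and the median of the members was 0.06. Libraries did not all deviate most closely with their own number.

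Ccne1 and Cdkn2c had under 10 reads in 3 of the 6 libraries each.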
